A study of Mus musculus with 6 samples.

Results

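A set of 10 genes that mark macrophages was followed in RNA from cultured mouse aortic smooth muscle cells: Ptprc, Adgre1, Csf1r, Cd14, Cd68, Lyz2, Fcer1g, Tyrobp, Mrc1 and Laptm5. They were found by gene symbol, which matched 10 of the 27179 genes in the table, and their levels were read against Acta2, the smooth muscle actin gene. Messenger RNA had been sequenced in 6 libraries of primary vascular smooth muscle cells from the aorta, 3 labelled Bmal1 KO and 3 labelled wild type (WT). Bmal1 encodes a transcription factor of the circadian clock. All cells of both labels had been grown in DMEM with 10% serum and kept for 7 days in a medium called diabetic, which contained hydrogen peroxide (0.3 mM) and glucose (4.5 g/L). The sources used here do not give how Bmal1 was deleted or in which cells, nor the strain, age and number of mice. Whether replicates were separate cultures is not stated either, so the spread that p-values rest on may be technical.

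Macrophages are phagocytes of the innate immune system that descend from blood-forming progenitors or from embryonic precursors, and the artery wall holds resident ones, mostly in its outer layer. Several genes of the set are used to recognise any white blood cell (Ptprc, Laptm5) or myeloid cell (Tyrobp, Fcer1g, Lyz2). Others, such as Adgre1, which encodes the F4/80 antigen, and Csf1r are used for macrophages proper. Smooth muscle cells and fibroblasts can also make some of these transcripts. Cholesterol-loaded smooth muscle cells in culture are known to gain Cd68, and Cd14 is made by many non-immune cells under inflammatory stimuli. In bulk RNA, more cells of a type and more RNA per cell cannot be told apart.

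Facts of the libraries that bear on every value are these. Reads assigned to genes ran from 32503525 to 38074293 in the libraries labelled Bmal1 KO and from 39129037 to 44657471 in the WT libraries, so that 1 read is worth 0.829 to 1.20 normalized counts. Levels given here are normalized read counts, the authors' scaled counts per library, and ± gives the SD over 3 libraries. Bmal1 mRNA, listed under the older symbol Arntl, was at 1036, 941 and 1036 in the libraries labelled Bmal1 KO, against 529, 619 and 590.4 in WT. It was not lower under the knockout label, and counts summed over a whole gene cannot show a missing exon, so groups are called by their labels. The same split of libraries also separated sex-linked transcripts, with Xist at 3867 ± 23.1 in libraries labelled Bmal1 KO and 58.7 ± 40.8 in WT, and Y-linked Ddx3y at 77.1 ± 7.53 and 3109 ± 285. The part of sex-linked expression in the differences below cannot be told apart from that of the genotype label. Acta2 was at 62931 ± 1900.4 in libraries labelled Bmal1 KO and at 20688 ± 1364 in WT.

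Of the 10 marker genes, 7 rose in the libraries labelled Bmal1 KO, 2 fell and Fcer1g did not pass the test, which was limma on log2(normalized count + 1) across all genes with a Benjamini-Hochberg adjusted p below 0.05. Over all 16086 genes tested, 71.1% passed, 36.2% higher and 34.9% lower, so passing is common here and the number of marker genes that passed is to be read against that share. The 2 that fell, Cd14 and Cd68, were the most abundant per kilobase in WT. All 10 passed the filter on low values (at least 10 in at least 3 libraries), but Ptprc, Adgre1, Tyrobp and Mrc1 did so only through the libraries labelled Bmal1 KO, with a WT library under 10, so that these 4 needed those libraries to be tested at all and their calls are no independent support for a rise. Values of the 3 libraries of each label did not overlap for any of the 10, 8 higher and 2 lower under the Bmal1 KO label. Over all tested genes 76.7% did not overlap, 38.5% higher and 38.2% lower.

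**Figure D1:**
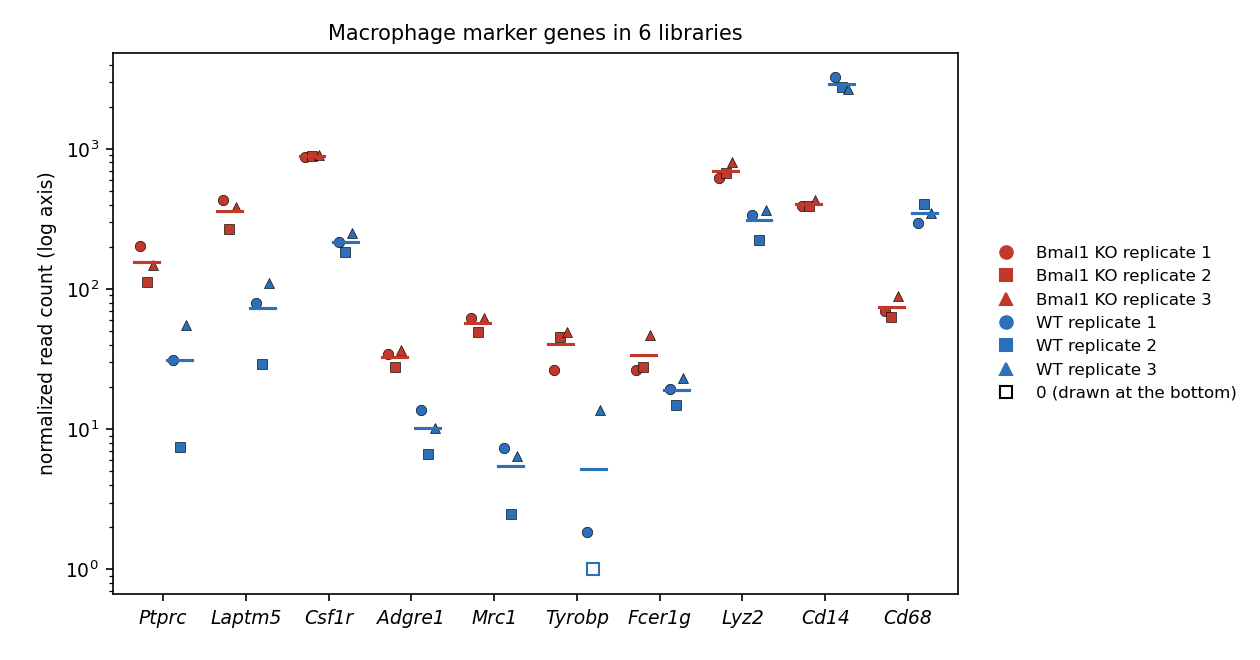
Normalized read counts (log axis) of the 10 marker genes in each library, with the libraries labelled Bmal1 KO (red) left of WT (blue), marker shape giving the replicate and lines the group means. Under the Bmal1 KO label Cd14 and Cd68 lie lower and the other 8 genes higher, and WT replicate 2 (blue square) is the lowest WT library for 8 of 10 genes, with Tyrobp at 0 there.

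Promoter sequences are shown for Cd68, which fell, and for Mrc1 and Laptm5, which rose, because the set moved in opposite directions. PU.1, a transcription factor of the macrophage lineage, binds a purine-rich element, the PU box, whose core is GAGGAA, read as TTCCTC on the other strand. RefSeq promoters (GRCm38.p6, 250 bases before to 50 after a gene's start) were searched for 6 of the 10 genes, with 2 windows for Ptprc. Those of Adgre1, Csf1r, Cd14 and Tyrobp were not searched, so of the 2 genes that fell only Cd68 was covered. Of the 7 windows searched, 4 held the core at least once (1 of the 2 of Ptprc, and those of Cd68, Mrc1 and Laptm5). The core was also held by 28.3% of 32851 promoters of the same length. The second Ptprc window and those of Fcer1g and Lyz2 held none. Capitals mark each core on either strand.
Cd68, chr11:69666121-69666420, minus strand: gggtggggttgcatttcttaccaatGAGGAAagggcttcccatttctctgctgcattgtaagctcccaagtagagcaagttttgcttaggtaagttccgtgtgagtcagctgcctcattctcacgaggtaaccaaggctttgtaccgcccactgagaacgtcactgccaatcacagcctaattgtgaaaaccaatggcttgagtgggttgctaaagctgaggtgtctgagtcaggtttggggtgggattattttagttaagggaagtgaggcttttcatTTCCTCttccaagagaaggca
Mrc1, chr2:14229164-14229463, plus strand: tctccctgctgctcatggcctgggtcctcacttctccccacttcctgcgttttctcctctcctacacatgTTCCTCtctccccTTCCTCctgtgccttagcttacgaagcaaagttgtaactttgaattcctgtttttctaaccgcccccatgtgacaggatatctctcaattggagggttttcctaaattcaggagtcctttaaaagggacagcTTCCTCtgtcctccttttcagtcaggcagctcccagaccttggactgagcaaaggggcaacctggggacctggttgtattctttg
Laptm5, chr4:130913066-130913365, plus strand: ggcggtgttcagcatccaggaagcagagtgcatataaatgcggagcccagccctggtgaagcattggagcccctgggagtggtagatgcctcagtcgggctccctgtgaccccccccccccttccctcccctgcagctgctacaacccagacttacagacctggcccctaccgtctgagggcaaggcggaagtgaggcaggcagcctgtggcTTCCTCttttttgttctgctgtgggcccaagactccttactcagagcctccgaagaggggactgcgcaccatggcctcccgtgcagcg
The Cd68 window holds 2 cores, starting at positions -225 and 30 relative to the gene's start, the Mrc1 window 3, at -180, -167 and -35, and the Laptm5 window 1, at -38. The core stood in the window of Cd68, which fell, as well as in those of Mrc1 and Laptm5, which rose. A match to 6 letters is a description of the sequence and not a site shown to be bound.

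The pan-leukocyte genes rose about equally by fold. Ptprc, which encodes the phosphatase CD45 of white blood cells (chromosome 1, 138062861 to 138175708, GENCODE M21 on mm10, as for the other positions), was at 204, 112 and 149.6 in the libraries labelled Bmal1 KO, against 31.2, 7.46 and 55.3 in WT. The groups did not overlap, and WT replicate 2, with 9 reads, lay far under the other WT libraries. The fold was 4.95 (log2 fold change 2.61, SE 0.64, limma adjusted p = 0.00674). Without WT replicate 3 the fold was 8.02, and without WT replicate 2 the log2 fold change was 1.83. Laptm5, which encodes a lysosomal membrane protein of blood cells (chromosome 4, 130913125 to 130936141), had 429, 269 and 386 in libraries labelled Bmal1 KO, against 79.8, 29.0 and 109.6 in WT. It followed the same order among the WT libraries as Ptprc, with replicate 2 lowest and replicate 3 highest, and the same lowest and highest library under the Bmal1 KO label. Its fold was 4.96 (log2 fold change 2.46, SE 0.45, adjusted p = 0.00164).

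Genes used for macrophages proper rose too, from levels near the detection floor except for Csf1r. Csf1r, the receptor for the macrophage growth factors CSF1 and IL-34 (chromosome 18, 61100598 to 61132149), was at 877, 897 and 906 in libraries labelled Bmal1 KO, against 216, 184 and 249.6 in WT. Replicates under the Bmal1 KO label lay close together (893 ± 14.6, n = 3), and its fold was 4.13 (log2 fold change 2.05, SE 0.13, adjusted p = 4.72e-06). Adgre1 (chromosome 17, 57358691 to 57483527) reached 34.6, 27.6 and 36.6, against 13.8, 6.63 and 10.1 in WT, which were 8 to 15 reads per WT library. That is 3.24-fold (log2 fold change 1.64, SE 0.35, adjusted p = 0.00360). Mrc1, the mannose receptor CD206 of many tissue macrophages and also of some endothelial cells (chromosome 2, 14229392 to 14332057), was at 62.2, 49.2 and 61.7, against 7.34, 2.49 and 6.45 in WT. No WT library reached 10, and the WT group held 18 reads in all. Its ratio of group means, 10.6-fold, was the largest of the 10 genes (log2 fold change 3.28, SE 0.41, adjusted p = 0.000208), with a 95% exact counting interval of 6.67 to 18.9 on the ratio of summed reads, which covers counting error only.

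Both adaptor genes were higher without overlap, and Tyrobp passed the test while Fcer1g missed it, a difference between them that was not tested. Tyrobp encodes DAP12 and Fcer1g the common Fc receptor gamma chain, signalling partners of activating receptors that recruit the kinase SYK. Tyrobp (chromosome 7, 30413760 to 30417585) was at 26.5, 45.6 and 49.1 in libraries labelled Bmal1 KO, against 1.83, 0 and 13.8 in WT, where the reads were 2, 0 and 15. Nearly all WT reads were thus in replicate 3. The fold of 7.74 (log2 fold change 3.53, SE 0.90, adjusted p = 0.00834) became 44.0 without WT replicate 3 and 5.16 without WT replicate 2, so its size rests on single libraries. Fcer1g (chromosome 1, 171229572 to 171234365) was at 26.5, 27.6 and 46.8, against 19.3, 14.9 and 23.0 in WT. It was the gene that did not pass, although the values did not overlap (log2 fold change 0.76, SE 0.34, adjusted p = 0.0733).

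Lyz2 rose least among the genes that passed. It encodes the lysozyme of macrophages and neutrophils (chromosome 10, 117277331 to 117282321) and was at 623, 671 and 809 in libraries labelled Bmal1 KO, against 340.3, 223 and 364 in WT. The fold was 2.27 (log2 fold change 1.20, SE 0.20, adjusted p = 0.000887). Its close copy Lyz1, a neighbour on chromosome 10, stayed below the filter at 10.2, 4.80 and 12.6, against 8.25, 3.32 and 5.53 in WT, and reads of the pair could have been split by the counting.

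Cd14 and Cd68 were lower in every library labelled Bmal1 KO. Cd14, the co-receptor that hands bacterial lipopolysaccharide to Toll-like receptor 4 (chromosome 18, 36725067 to 36726798), was at 389, 391 and 432, against 3237, 2753 and 2667 in WT. It was 7.14-fold lower (log2 fold change -2.83, SE 0.095, adjusted p = 2.24e-07), and within each label its replicates stayed close to each other. Cd68, which encodes a heavily glycosylated lysosomal membrane protein (chromosome 11, 69664213 to 69666153), was at 69.3, 63.5 and 89.1, against 294, 403 and 347 in WT, 4.71-fold lower (log2 fold change -2.22, SE 0.19, adjusted p = 2.74e-05). WT replicate 2, the lowest WT library for 8 of the 10 genes, was the highest for Cd68 and the middle one for Cd14.

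**Figure D2:**
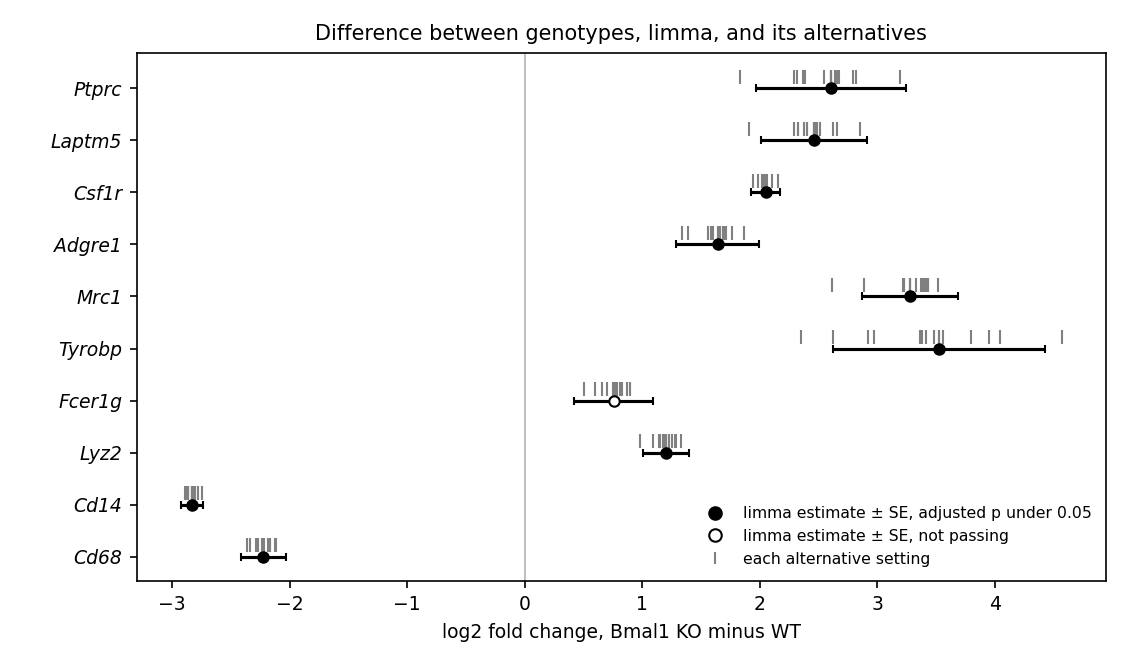
Log2 fold change of each marker gene, libraries labelled Bmal1 KO minus WT, as the limma estimate with its SE (circles, filled where the adjusted p is under 0.05) and under each of up to 16 alternative settings (grey ticks). The direction of every gene is the same under each alternative drawn, from -2.89 to -2.74 for Cd14 to 2.36 to 4.57 for Tyrobp.

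Since Acta2 was itself 3.04-fold higher in the libraries labelled Bmal1 KO, each gene was also expressed per kilobase of transcript as a percentage of Acta2 in the same library, a ratio that no scaling between libraries can move. Cd14 stood at 0.746%, 0.795% and 0.848% of Acta2 in libraries labelled Bmal1 KO, against 18.6%, 16.0% and 17.3% in WT. Cd68 was at 0.173%, 0.169% and 0.229%, against 2.21%, 3.06% and 2.94% in WT. On this scale Cd14 was 21.7-fold and Cd68 14.4-fold lower, larger differences than on the scale of normalized counts. With Acta2 as the reference, only 2 genes stayed higher with no overlap. Csf1r was at 0.565%, 0.613% and 0.598%, against 0.416%, 0.359% and 0.544% in WT (1.35-fold). That result depends on the reference, since the contractile gene Tagln rose 5.98-fold, more than Csf1r with 4.13-fold. Mrc1 was at 0.0364%, 0.0305% and 0.0370%, against 0.0129%, 0.00442% and 0.0128% in WT (3.46-fold).

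For the other 6 genes the shares of Acta2 overlapped between labels. Ptprc averaged 0.0974% ± 0.0264 in libraries labelled Bmal1 KO and 0.0621% ± 0.0507 in WT, Laptm5 0.447% ± 0.0910 and 0.281% ± 0.171, and Tyrobp 0.233% ± 0.0739 and 0.0971% ± 0.142 (SD, n = 3 each). Adgre1 was nearly level, at 0.0328% ± 0.00404 and 0.0310% ± 0.0104. Lyz2 and Fcer1g had lower means under the Bmal1 KO label, Lyz2 with 1.72% ± 0.247 and 2.33% ± 0.669, and Fcer1g with 0.145% ± 0.0492 and 0.253% ± 0.0693. An exact two-sided permutation test of 3 libraries against 3 cannot give a p below 0.1, which Cd14, Cd68, Csf1r and Mrc1 reached, while the others lay between 0.2 (Fcer1g, Tyrobp and Laptm5) and 0.8 (Adgre1).

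**Figure D3:**
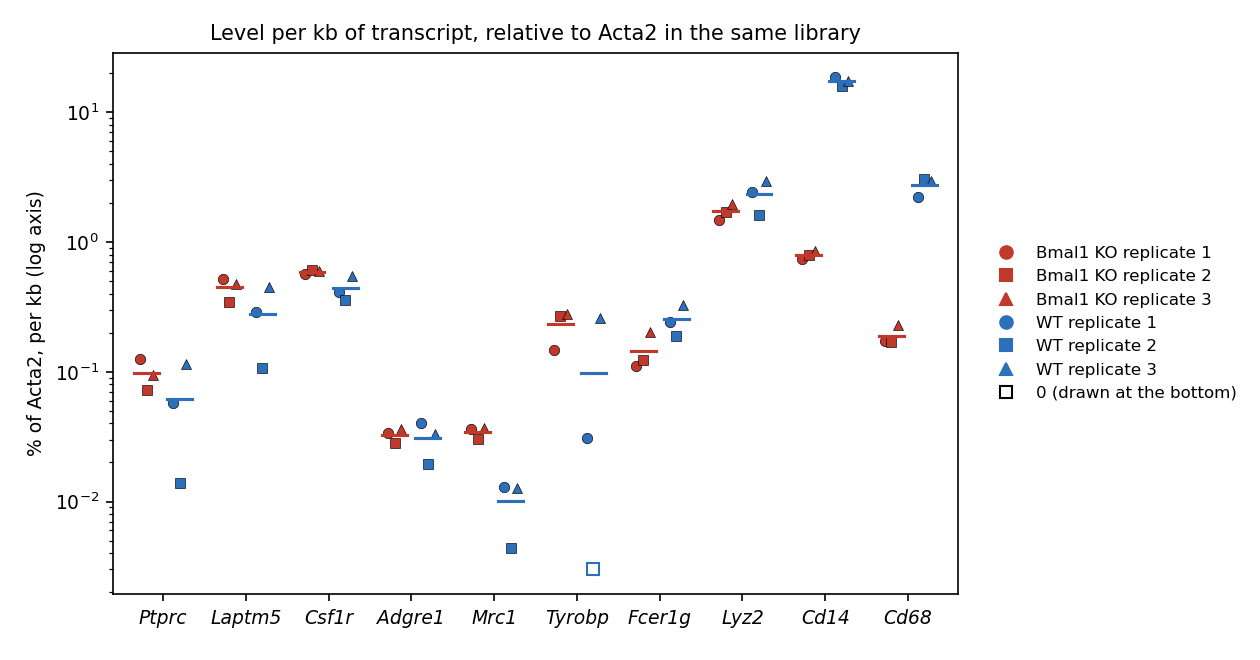
Level of each marker gene per kilobase of transcript as a percentage of Acta2 in the same library (log axis), libraries labelled Bmal1 KO (red) left of WT (blue), lines giving group means. Cd14 and Cd68 stay far apart between labels, Csf1r and Mrc1 are higher in the libraries labelled Bmal1 KO without overlap, and the other 6 genes overlap.

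Ordered by normalized counts per kilobase, the set ran in libraries labelled Bmal1 KO from Lyz2 (533 ± 73.3) through Cd14 (246 ± 14.7), Csf1r (183 ± 2.98), Laptm5 (139 ± 31.9), Tyrobp (71.6 ± 21.6), Cd68 (58.9 ± 10.7), Fcer1g (45.0 ± 15.3) and Ptprc (30.3 ± 9.06) down to Mrc1 (10.7 ± 1.37) and Adgre1 (10.2 ± 1.46). In WT it ran from Cd14 (1758 ± 187) through Cd68 (277 ± 43.2), Lyz2 (235 ± 57.3), Csf1r (44.3 ± 6.71), Laptm5 (28.0 ± 15.7), Fcer1g (25.5 ± 5.42), Tyrobp (9.25 ± 13.3), Ptprc (6.11 ± 4.67) and Adgre1 (3.14 ± 1.10) down to Mrc1 (1.01 ± 0.480). In the libraries labelled Bmal1 KO, neighbours from Tyrobp to Ptprc overlapped, as did Mrc1 with Adgre1. In WT, Cd68 overlapped with Lyz2, as did all neighbours from Csf1r to Adgre1. Acta2 on the same scale was at 30924 ± 934 in libraries labelled Bmal1 KO and 10166 ± 670.1 in WT. Among genes with any read in a library, Acta2 stood at percentile 98.9 or above per kilobase in every library. Cd14 lay at percentiles from 55.8 to 58.1 in libraries labelled Bmal1 KO and from 90.3 to 91.5 in WT. Csf1r lay at percentiles from 51.0 to 51.6 in libraries labelled Bmal1 KO and from 31.9 to 34.5 in WT, and Adgre1 at 19.8 or below in all 6 libraries.

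The 10 genes did not keep fixed proportions to each other. Relative to Ptprc in the same library, a ratio chosen after the values had been seen, Laptm5 was the steadiest, at 2.10, 2.41 and 2.58 in libraries labelled Bmal1 KO and 2.56, 3.89 and 1.98 in WT. Mrc1 spanned 3.78-fold over the 6 libraries, Adgre1 5.23-fold and Csf1r 5.73-fold, all with overlap between labels. Cd14 per Ptprc was at 1.91, 3.51 and 2.89, against 104, 369 and 48.3 in WT, and Cd68 per Ptprc at 0.340, 0.570 and 0.595, against 9.44, 54.0 and 6.28. Neither pair of ranges came near to overlapping. Lyz2 and Fcer1g per Ptprc were also lower in each library labelled Bmal1 KO, at 3.06, 6.02 and 5.40, against 10.9, 29.9 and 6.58 for Lyz2, and at 0.130, 0.247 and 0.313, against 0.618, 2.00 and 0.417 for Fcer1g. These ratios divide by the 9 Ptprc reads of WT replicate 2, so the values of that library are the least certain.

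**Figure D4:**
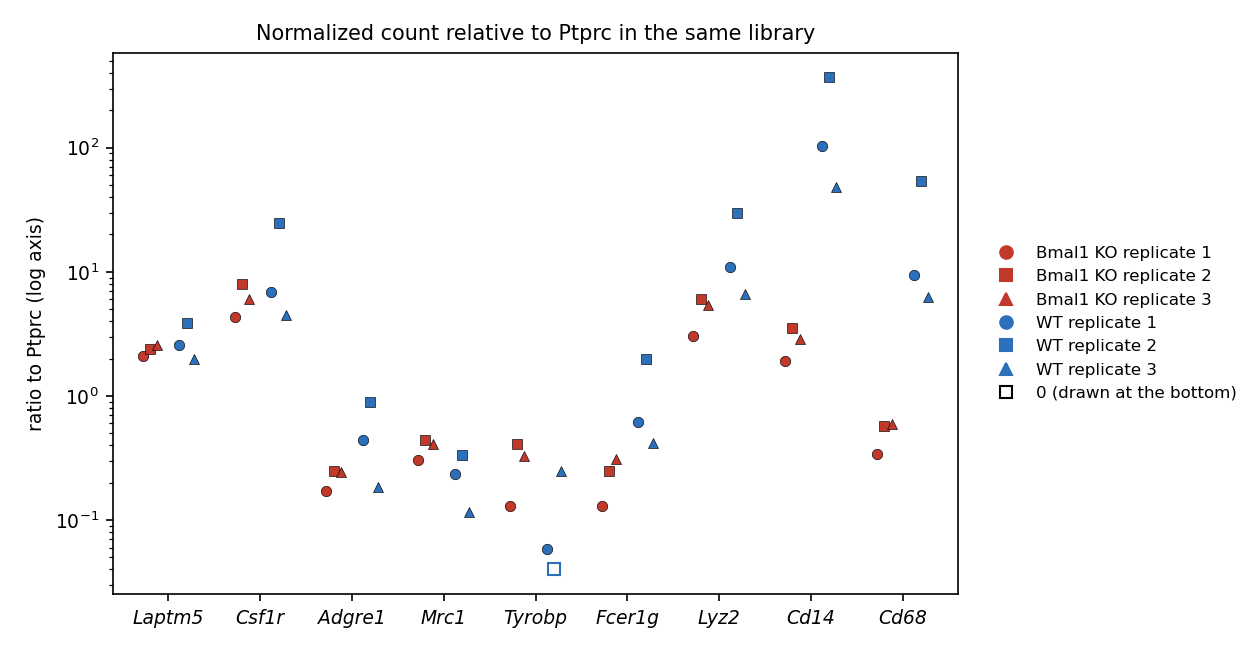
Normalized count of each marker gene divided by that of Ptprc in the same library (log axis), libraries labelled Bmal1 KO (red) left of WT (blue). Laptm5, Adgre1, Csf1r and Mrc1 overlap between labels, whereas Cd14 and Cd68 are lower in every library labelled Bmal1 KO, with 1.91 to 3.51 against 48.3 to 369 for Cd14.

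Both ligands of CSF1R rose, from very different levels. Csf1, which encodes the main growth factor of macrophages, was at 100991, 98664 and 97231 in libraries labelled Bmal1 KO, against 27684, 31791 and 29159 in WT, 3.35-fold higher (log2 fold change 1.75, adjusted p = 1.58e-06). Il34, the second ligand, was at 254, 391 and 340.4, against 89.9, 99.5 and 81.0 (3.64-fold, adjusted p = 7.98e-05). In the list of 10 colony-stimulating factor ligands and receptors, 5 of 9 tested rose and 2 fell, against 36.2% and 34.9% of all genes. Of the 7 with every WT library at 10 or more, 4 rose and 2 fell, beside 4617 and 5618 of all 14585 such genes. Csf3, the granulocyte factor gene, had 1 read over the libraries labelled Bmal1 KO and 524 in WT.

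Transcription factors of the macrophage lineage moved both ways, 7 of 13 tested higher and 4 lower, against 36.2% and 34.9% of all genes. The median log2 fold change was 0.72 beside -0.012 over all genes. Of the 12 with every WT library at 10 or more, 6 rose and 4 fell. Of all 14585 such genes, 4617 (31.7%) rose and 5618 fell. Spi1, which encodes PU.1, was at 84.6, 50.4 and 89.1 in libraries labelled Bmal1 KO, against 11.0, 6.63 and 16.6 in WT (6.55-fold, adjusted p = 0.000540). With a WT library under 10, Spi1 needed libraries labelled Bmal1 KO to be tested. Irf8 and Ikzf1, blood-lineage factors at similarly low levels, rose 3.13-fold and 3.29-fold. Cebpb, an inflammatory factor that many cell types make, was far more abundant and fell to 5950.2 ± 189, against 28091 ± 5134 in WT (4.72-fold, adjusted p = 2.55e-06). Maf fell 1.96-fold and Cebpa rose 1.65-fold.

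Among macrophage surface and complement genes, 23 of 28 tested rose and 3 fell, against 36.2% and 34.9% of all genes. A further 13 were too low to test. Of the 28, 18 had a WT library under 10 and needed libraries labelled Bmal1 KO to pass the filter. Of the 10 with every WT library at 10 or more, 6 rose and 3 fell. Of all 14585 such genes, 4617 (31.7%) rose and 5618 fell. With a filter of 1 CPM in 3 libraries, 11 of the list rose. C1qa, a complement gene that macrophages make, was at 116, 185 and 336, against 25.7, 15.8 and 62.6 in WT (adjusted p = 0.00271), and Mertk, a receptor for apoptotic cells, rose 6.76-fold. Lyve1, a hyaluronan receptor of some arterial macrophages and of lymphatic endothelium, rose 16.4-fold, to 189.9 ± 4.19 against 11.6 ± 1.16 in WT. The 3 genes that fell were Itgb2, the integrin beta 2 chain of leukocytes, Mpeg1, which encodes the macrophage pore protein perforin-2, and the lipid receptor gene Trem2. Itgb2 fell to 146, 149.9 and 185, against 1223, 1367 and 1262 in WT (8.01-fold, adjusted p = 5.13e-07), while Itgam, the gene of its partner in the myeloid integrin CD11b/CD18, was at 29.6, 38.4 and 62.8, against 2.75, 4.98 and 9.21. Of other defining macrophage genes, Timd4, Cd163, Msr1 and Marco stayed below the filter, and Vsig4 had no read in any library.

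Among signalling genes of blood cells, 27 of 35 tested were higher and 3 lower, against 36.2% and 34.9% of all genes. But 18 of the 35 had a WT library under 10 and needed libraries labelled Bmal1 KO to be tested. Of the 17 with every WT library at 10 or more, 10 rose and 3 fell. Of all 14585 such genes, 4617 (31.7%) rose and 5618 fell. Syk, the kinase that TYROBP and FCER1G recruit, was at 3697, 3820 and 3722 in libraries labelled Bmal1 KO, against 287, 294 and 266 in WT (13.3-fold, adjusted p = 1.84e-08). SYK is known from blood cells but is also made by other cell types. Lyn, a kinase gene of the same pathway, rose 2.27-fold. The 3 that fell were Ptpn7 (8.90-fold), Lsp1 (2.39-fold) and Plcg2 (1.70-fold). Cd53, a leukocyte gene, did not pass, with 662 ± 79.1 against 677 ± 66.0 in WT (adjusted p = 0.811). Hcst, which lies 130 bases from the Tyrobp gene and encodes the adaptor DAP10, stayed below the filter with 14 reads in libraries labelled Bmal1 KO and 6 in WT.

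Partners of CD14 moved both ways. Of the list, 3 of the 13 were higher and 6 were lower, against 36.2% and 34.9% of all genes, while 4 missed the threshold. The median log2 fold change was -0.087. Tlr4, the receptor that CD14 serves, was at 1493, 1478 and 1351 in libraries labelled Bmal1 KO, against 1068, 1215 and 1261 in WT, 1.22-fold higher (adjusted p = 0.0165), but leaving out either replicate 1 or replicate 2 of the Bmal1 KO label ended that call (limma adjusted p = 0.0607 each). Ly96, which encodes the TLR4 partner MD-2, was at 155, 116 and 164, against 183, 120.2 and 129.9 (adjusted p = 0.942). Lbp, whose product carries lipopolysaccharide to CD14, fell 2.43-fold, Tlr2 2.83-fold and Tlr1 3.39-fold.

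Lysosome and phagocytosis genes, the functional neighbours of Cd68, had 11 of 21 tested lower and 5 higher (median log2 fold change -0.26). Over all genes, 34.9% were lower and 36.2% higher. Of the 19 with every WT library at 10 or more, 11 fell and 3 rose. Of all 14585 such genes, 5618 fell and 4617 (31.7%) rose. Laptm4b, a relative of Laptm5, fell 2.77-fold and the lysosomal membrane gene Scarb2 fell to 2521 ± 139, against 5029 ± 304 in WT. Lgals3, the galectin-3 gene, rose 2.55-fold, and Ctss, a cathepsin gene typical of macrophages, was at 164, 209.8 and 256, against 43.1, 7.46 and 60.8 in WT, with WT replicate 2 again lowest. The list of the mannose receptor family of Mrc1 and other lectins held 12 genes, galectins among them. Of 10 tested, 3 rose and 4 fell, against 36.2% and 34.9% of all genes. Of the 9 with every WT library at 10 or more, 2 rose and 4 fell, beside 4617 and 5618 of all 14585 such genes. Mrc2, the paralog of Mrc1 that mesenchymal cells make, did not pass.

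**Figure D5:**
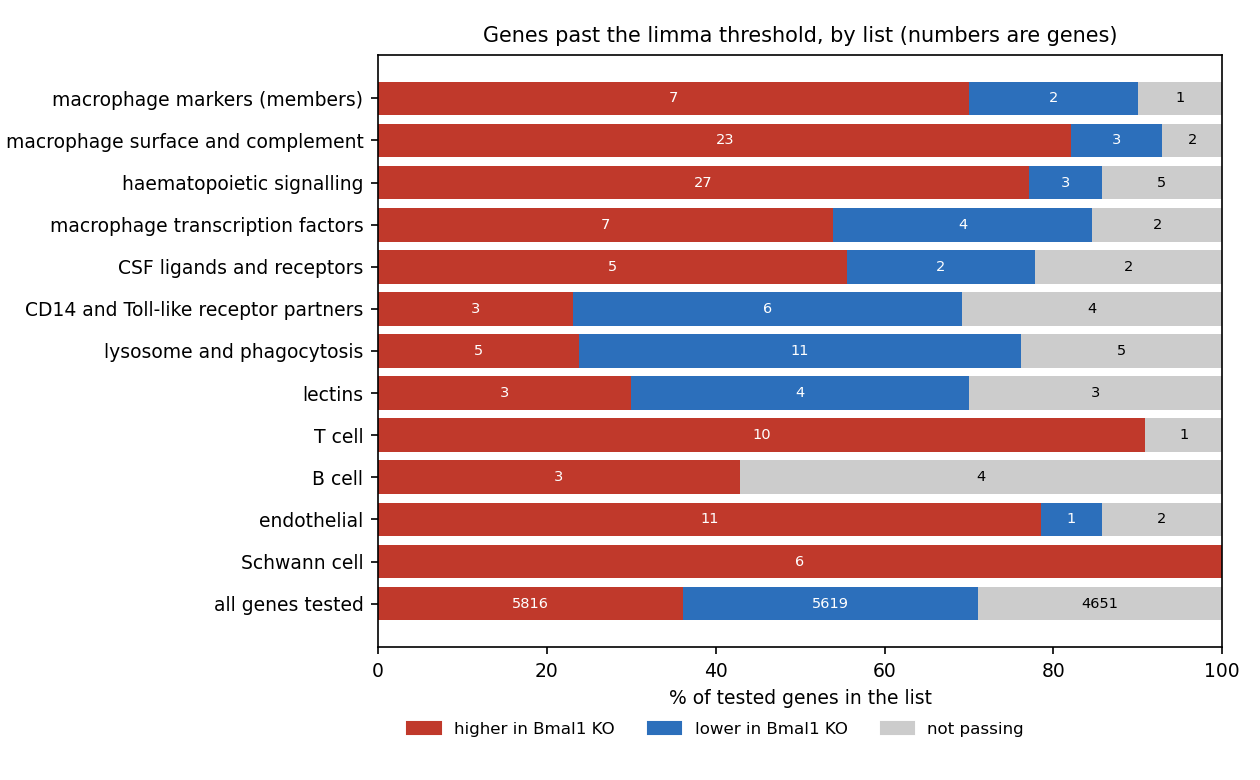
Share of the tested genes of each list that were higher (red) or lower (blue) in the libraries labelled Bmal1 KO or did not pass (grey) in the limma test, with the number of genes in each bar. The surface and signalling lists have 23 of 28 and 27 of 35 genes higher, but 18 genes of each had a WT library under 10 and were tested only through the libraries labelled Bmal1 KO, and 6 of 10 and 10 of 17 are higher without them.

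Markers of T and B cells summed to higher levels in the libraries labelled Bmal1 KO, and their part in the results was not tested. The 11 measured T cell markers summed to 335 to 509 normalized counts in libraries labelled Bmal1 KO and 134 to 230.2 in WT. All 11 were tested, 10 rose, against 36.2% of all genes, and Lck did not pass. Of the 11, 6 were higher without Bmal1 KO replicate 3, 7 without replicate 2 and 2 with a filter of 1 CPM in 3 libraries. All 10 of those that rose had a WT library under 10. The 8 measured B cell markers summed to 1339, 330 and 439.8 in libraries labelled Bmal1 KO, against 266, 70.5 and 176 in WT. Of 7 tested, 3 rose, against 36.2% of all genes. That count was 6 without WT replicate 1, 6 with a replicate block and 1 without Bmal1 KO replicate 1. Bmal1 KO replicate 1, the highest library for B cell markers, was also the highest for Ptprc, Laptm5 and Mrc1, but not for the other 7 genes. Of the 11 neutrophil markers 9 were too low to test, with Ly6g at 1 read in all.

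Mast cell markers did not move as one. The tryptase gene Tpsab1 was at 772, 621 and 652 in libraries labelled Bmal1 KO and had no read in any WT library (limma adjusted p = 8.86e-08). Tpsb2, a second tryptase gene, was at 27.5, 18.0 and 32.0, against 0.917, 0 and 0 in WT, where it had 1 read in all (adjusted p = 0.000146). Both entered the test only through the libraries labelled Bmal1 KO. The mast cell receptor genes Fcer1a and Ms4a2 had no reads in either group, Cpa3 stayed below the filter, Kit did not pass and Gata2, a factor also of other blood and endothelial cells, fell to 516 ± 30.3, against 2092 ± 53.6 in WT. The part of mast cell transcripts in the results was not tested.

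Endothelial and Schwann cell markers also summed to higher levels. Of 14 endothelial markers, 11 rose and 1 fell, against 36.2% and 34.9% of all genes, but 7 of the 14 had a WT library under 10. Of the other 7, with every WT library at 10 or more, 4 rose and 1 fell. Of all 14585 such genes, 4617 rose and 5618 fell. With a filter of 1 CPM in 3 libraries, 7 rose. The list had sums of 2752 to 3139 in libraries labelled Bmal1 KO and 1051 to 1169.7 in WT. Flt1 was the largest part under the Bmal1 KO label, at 1579 ± 53.5 against 243 ± 17.7 in WT. Egfl7 was the gene that fell (2.46-fold), and Kdr and Erg did not pass. Pecam1, the endothelial adhesion gene CD31 that leukocytes share, was at 247, 218 and 327, against 32.1, 14.1 and 58.0. All 6 tested Schwann cell markers rose, against 36.2% of all genes, 2 of them with a WT library under 10. The list summed to 2339 to 4067 in libraries labelled Bmal1 KO and 1039 to 1536 in WT.

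The WT libraries kept a similar order in some of these lists and not in others. WT replicate 2 was the lowest WT library for 8 of the 10 marker genes, for 10 of 11 T cell, 7 of 7 B cell, 5 of 6 Schwann cell, 8 of 14 endothelial and 27 of 35 blood-cell signalling genes tested. For macrophage surface and complement genes it was lowest for 14, or 51.9% of those tested that differed between WT libraries. Among all tested genes it was lowest for 34.5%, and among the 8914 with a mean from 10 to 1000 for 43.3%. In other lists it was lowest for 1 of 9 colony-stimulating factor genes, 2 of 13 CD14 partners, 6 of 21 lysosome genes, 4 of 10 lectins, 6 of 13 transcription factors and 2 of 10 contractile genes. Neither Cd14, Cd68, Itgb2 nor Mpeg1 was lowest there.

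Genes that overlap or adjoin the set can share reads with it. No protein-coding gene overlapped a member in the RefSeq annotation of the same build, while pseudogenes, microRNA genes or other non-coding genes overlapped Adgre1, Csf1r, Mrc1 and Laptm5. Genes within 1 kb included Hmgxb3 beside Csf1r (138 bases), Eif4a1 beside Cd68 (766 bases) and Hcst beside Tyrobp. The log2 fold changes of Hmgxb3 and Eif4a1 were -0.54 and -0.84. The microRNA gene Mir511 within Mrc1 had no reads.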

How the data were processed

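Polyadenylated RNA was sequenced in 6 libraries, 3 labelled Bmal1 KO and 3 labelled WT, grouped by their titles. The authors' deposited table holds a signal per gene and library, normalized read counts. Dividing each library by its smallest step gave back whole reads for 100% of values within 0.01. Per the submitters' processing notes, Trimmomatic, HISAT2, featureCounts and the mm10 build were used. Nothing used here gives their versions, the annotation or whether counting used strand, so reads of a gene and its antisense partner cannot be told apart.

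Genes with at least 10 in at least 3 libraries were tested with limma 3.58.1 in R 4.3.3 (log2(value + 1), mean-variance trend, group as the only term), and every adjusted p is from limma with Benjamini-Hochberg adjustment over all genes tested, called at 0.05. Adding 1 shrinks log2 fold changes of low genes, and folds are ratios of group means. The limma estimate averages logs, so with uneven WT libraries it can exceed the log2 of the fold. Tyrobp, with 3.53 beside a fold of 7.74, is such a case. The fits were also run on simulated data, with the same dispersion for every gene and few genes changed, all upward. These libraries differ in both respects, so that run cannot show how often calls here are wrong. Levels per kilobase used the exon length of GENCODE M21 on mm10. Alternatives were TMM and upper-quartile scaling, other pseudocounts and filters, a replicate block, leaving out each library, and voom, edgeR 4.0.16 and DESeq2 1.42.0 on recovered reads.

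The marker genes and the 18 gene lists were chosen with earlier results of these data known. From each list, up to 4 genes with the smallest adjusted p that passed and up to 3 below the filter could be named, besides Csf1, Il34, Tlr4, Ly96, Hcst, Syk, Spi1, Lyz1 and genes within 1 kb whatever their values. Irf8, Ikzf1, C1qa, Itgam, Mpeg1, Trem2, Marco, Vsig4, Ctss, Mrc2, Lck, Lum, Ms4a2, Ptpn7, Plcg2, Cd53, Kdr and Erg were named after their values had been seen. Intervals cover counting error only. Some results are not reported here.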

Additional observations from a re-analysis of the deposited data

How the results depend on the processing

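Direction and side of the threshold of each of the 10 marker genes were the same under every alternative in which the gene was tested. With a filter of 1 CPM in 3 libraries, Adgre1, Fcer1g and Tyrobp were not tested, and 11 of the macrophage surface and complement genes were higher in place of 23. The log2 ratio of the Adgre1 share of Acta2 between labels, 0.085 as reported, was -0.073 with Acta2, Tagln and Myl9 summed as the reference and -0.16 without WT replicate 2, the lowest of a range that reached 0.31 on leaving out 1 library. The log2 fold change of Ly96, 0.019 as reported, was -0.042 with TMM scaling, -0.016 with edgeR, and between -0.099 and 0.20 on leaving out 1 library. The cause of these shifts was not tested. Called genes numbered 11579 with TMM, 11365 with upper-quartile scaling, 11479 with edgeR, 11496 with voom and 11267 with DESeq2, against 11435. Replicate numbers are shared between labels, but deviations of same-numbered libraries correlated at -0.0045, 0.026 and 0.084. No library labelled Bmal1 KO correlated best with its own number, and of the WT libraries only replicate 3 did. With a replicate block 11556 genes were called, and 7 marker genes were higher and 2 lower, as without it, while 6 in place of 3 B cell markers were higher and 2 in place of 1 dendritic cell markers lower. Low counts limit WT values, with 8, 3 and 7 reads for Mrc1, 2, 0 and 15 for Tyrobp, 15, 8 and 11 for Adgre1, and 9 for Ptprc in replicate 2.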

Other observations

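Lists for other cell types held few genes above the filter. Over all genes tested, 36.2% were higher and 34.9% lower. Of 8 natural killer cell markers only Eomes was tested, which was lower under the Bmal1 KO label, and of 11 neutrophil markers Mpo was higher and Padi4 lower. Mpo needed the libraries labelled Bmal1 KO to be tested, and Eomes and Padi4 needed the WT libraries. Of 10 mast cell markers 4 were tested, with both tryptase genes higher and Gata2 lower. Among dendritic cell markers 6 of 9 were tested, 3 higher and 1 lower, and among 11 platelet and erythroid markers 5, of which 2 were higher and 2 lower. All 3 dendritic cell genes that rose had a WT library under 10 and needed libraries labelled Bmal1 KO to be tested. Of the 3 with every WT library at 10 or more, none rose and 1 fell. Hba-a1, 1 of the 2 higher platelet and erythroid genes, also had a WT library under 10. Fibroblast markers divided, with 7 of 12 tested higher and 5, among them the matrix genes Lum and Dcn, lower. All 10 contractile genes were higher, with sums of 118466 to 129319 in libraries labelled Bmal1 KO and 36076 to 42061 in WT.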
